A study of Mus musculus with 24 samples.

Results

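The 10 genes described here were the Toll-like receptor genes Tlr1, Tlr2, Tlr3, Tlr4, Tlr6, Tlr7, Tlr8, Tlr9 and Tlr13 and the co-receptor gene Cd14. They were taken by symbol from the 18063 genes listed for the M1 libraries and the 17786 genes listed for the M2 libraries. All 10 were listed in both. They were measured by RNA-seq in bone marrow-derived macrophages (BMDMs) of WT and DRD5-/- mice on the C57BL/6 background at 10 weeks of age. DRD5 is a receptor for dopamine (DA), and the DRD5-/- mice were made by CRISPR-Cas9 editing. The study describes them as knockout mice and names no restriction of the deletion to macrophages. For 12 h the BMDMs received either 100 ng/ml LPS plus 50 ng/ml IFN-γ, which gives M1 macrophages, or 10 ng/ml each of IL-4 plus IL-13, which gives M2 macrophages, without or with DA. With 2 genotypes, 2 stimuli, and DA absent or present, this made 8 groups of 3 libraries. No group was left without a polarizing stimulus, so all levels are those of polarized cells. The labels give the tissue as bone while 1 protocol field names colons, and they do not say whether the libraries of a group came from separate mice, so the p-values measure only the spread between these libraries, which may be technical.

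Toll-like receptors are membrane proteins by which macrophages sense microbes. TLR1, TLR2, TLR4 and TLR6 sit on the cell surface: TLR2 pairs with TLR1 or TLR6 to bind bacterial lipoproteins, and TLR4 with its partner MD-2 binds LPS, which CD14 hands over to it. TLR3, TLR7, TLR8, TLR9 and TLR13 sit in endosomes and bind nucleic acids, namely double-stranded RNA for TLR3, single-stranded RNA for TLR7 and TLR8, unmethylated CpG DNA for TLR9 and bacterial ribosomal RNA for TLR13. All except TLR3 signal through the adaptor MyD88 to NF-κB and MAP kinases, whereas TLR3, and TLR4 from endosomes, signal through TRIF to interferon genes. LPS, a part of the M1 stimulus, is itself the ligand of TLR4 and CD14.

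Levels are given as FPKM, fragments scaled to the length of the transcript and to the mapped fragments of the library, as the authors deposited them. The read depth is unknown. The FPKM of a library summed to 476187 to 494459 in M1 and 482310 to 503799 in M2 cells, and libraries of 1 group correlated across genes with r of at least 0.9982 in M1 and 0.9983 in M2. Drd5 was not listed for the M1 libraries. Among the M2 libraries it was listed at 0 in 10 of 12, at 0.06 FPKM in untreated WT replicate 2 and at 0.03 FPKM in DA-treated WT replicate 2. The expression of the targeted gene could therefore not check the genotype labels. The 7 macrophage markers summed to 7020.58 to 7993.28 FPKM in M1 and 8292.32 to 11172.81 FPKM in M2 libraries, and the T cell and B cell markers stayed below 0.9 FPKM in sum. The M1 marker Nos2, which makes nitric oxide, lay at 1669.03 FPKM or more in every M1 library and at 0.33 FPKM or less in every M2 library, and the M2 marker Retnla at 28.44 FPKM or more in M2 and 0.17 FPKM or less in M1 libraries. Not all M2 markers went this way: by the threshold given below, 3 of 4 were lower and 1 was higher in untreated M1 cells of each genotype. The 4 summed to 77.45 to 78.14 FPKM in untreated M1 WT and 476.36 to 493.38 FPKM in untreated M2 WT libraries.

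All 10 genes were above 1 FPKM in every library and passed the filter for testing in every comparison. The remaining mouse receptors, Tlr5 (flagellin), Tlr11 and Tlr12 (both profilin), did not pass it: their highest values in any library were 0.53, 0.2 and 0.61 FPKM. In untreated M1 WT BMDMs Cd14 was the highest of the 10, with 237.9 ± 2.86 FPKM (mean ± SD, n = 3 here and below), followed by Tlr13 with 61.32 ± 1.63 and Tlr1 with 46.62 ± 1.69. Tlr7 with 33.91 ± 1.3, Tlr8 with 31.53 ± 1.15 and Tlr9 with 29.59 ± 0.809 FPKM came next, then Tlr6 with 18.24 ± 1.09, Tlr3 with 17.73 ± 0.684, Tlr4 with 13.44 ± 0.528 and Tlr2 with 11.7 ± 0.606 FPKM. In that order the libraries of Tlr7 and Tlr8 and those of Tlr6 and Tlr3 overlapped, while the libraries of all other neighbours did not.

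In untreated M2 WT BMDMs Cd14 was again the highest, with 154.7 ± 3.6 FPKM. It was followed by the endosomal receptors Tlr8 with 132.3 ± 6.2 and Tlr7 with 88.67 ± 2.57 FPKM, and then Tlr13 with 61.9 ± 2.34, Tlr1 with 41.16 ± 0.914 and Tlr4 with 38.67 ± 1.34 FPKM. The 4 lowest were Tlr9 with 18.13 ± 0.266, Tlr2 with 9.827 ± 0.085, Tlr6 with 5.447 ± 0.315 and Tlr3 with 4.847 ± 0.0635 FPKM. With DA the M2 WT order changed: Tlr13 stood first with 98.06 ± 1.44 FPKM, then Tlr8 with 80.96 ± 2 and Cd14 with 57.39 ± 1.24 FPKM, and Tlr2 was last with 4.09 ± 0.0529 FPKM. The libraries of Tlr6 overlapped those of both Tlr3 and Tlr9 there.

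**Figure D1:**
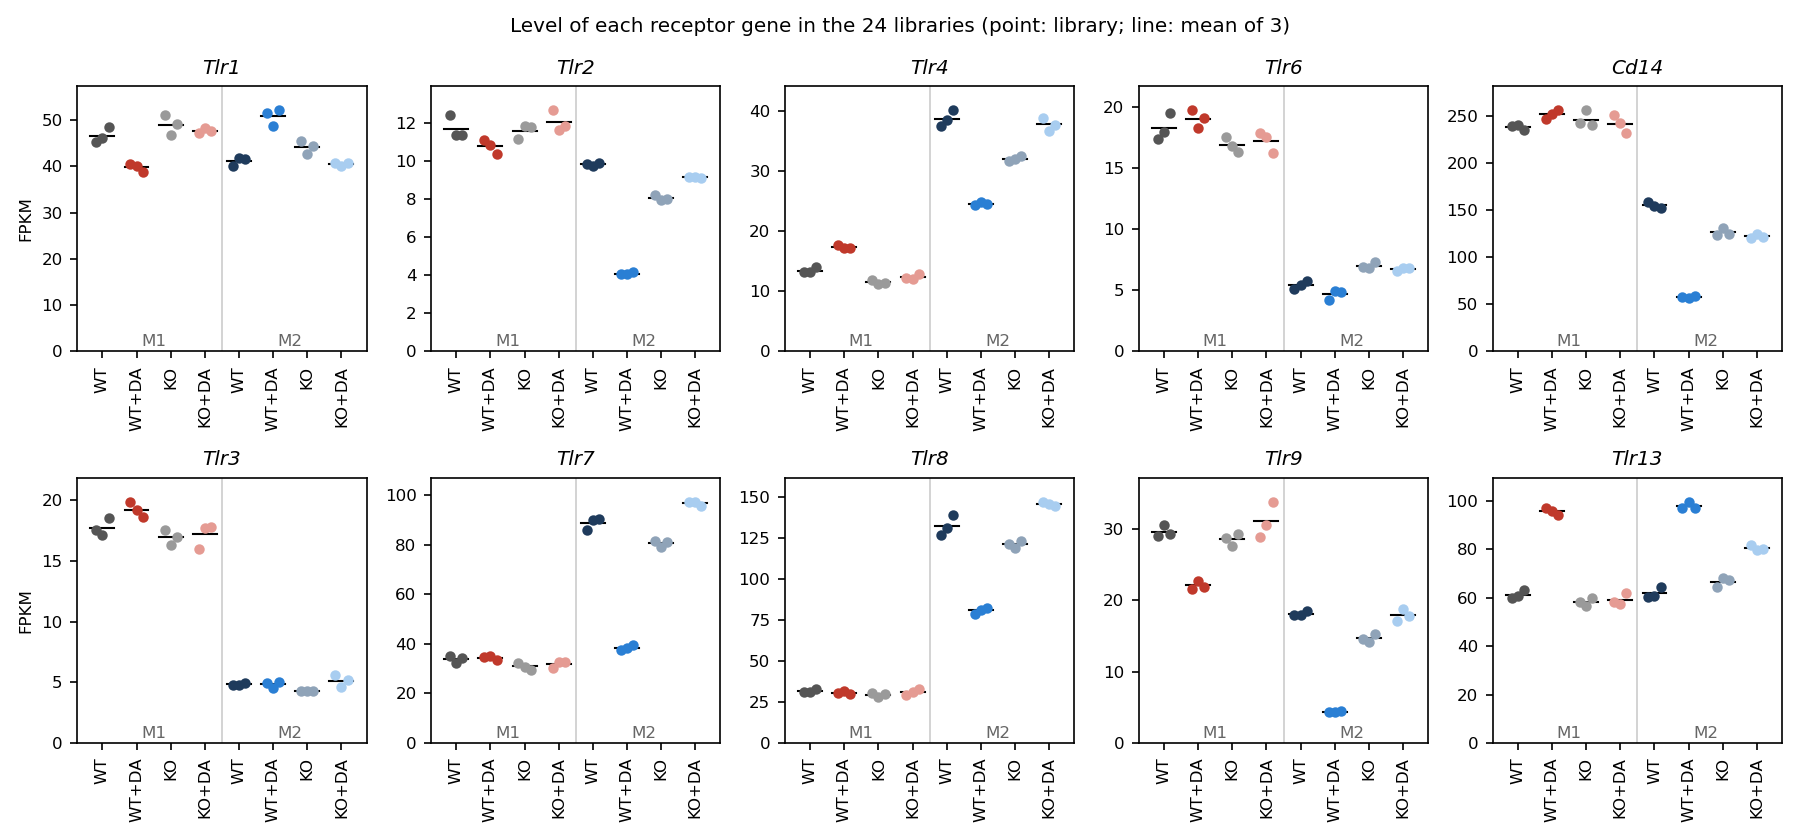
FPKM of the 10 genes in the 24 libraries, on a separate linear axis for each gene, with 1 point per library and a bar at the mean of each group of 3. Tlr13 stands higher in DA-treated than in untreated WT BMDMs of both stimuli, and in M2 cells Cd14, Tlr2, Tlr4, Tlr7, Tlr8 and Tlr9 stand lower with DA in WT.

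Tlr13 rose and Tlr9 fell with DA in WT cells of both stimuli, and Tlr8 fell in M2 WT cells (values below). The promoters of these genes were picked as examples, although Tlr1 and Tlr2 also changed in M2 WT cells and had a window. They were read from RefSeq windows on the build GRCm38.p6 for the 250 bases before the annotated start, 5′ to 3′ on the strand of the gene. Of the 10 genes 7 had a window. The Tlr13 stretch is 179 bases, since the GENCODE transcript begins 71 bases before the RefSeq start. Capitals mark matches, on either strand, to the motifs searched: PU.1 (GAGGAAG), AP-1 (TGANTCA), the cAMP response element (TGACGTCA), its shorter form TGACG, and the ISRE and NF-κB motifs, given by name. The shorter form overlaps the full element wherever both match.
Tlr9, chr9:106222348-106222597, plus strand: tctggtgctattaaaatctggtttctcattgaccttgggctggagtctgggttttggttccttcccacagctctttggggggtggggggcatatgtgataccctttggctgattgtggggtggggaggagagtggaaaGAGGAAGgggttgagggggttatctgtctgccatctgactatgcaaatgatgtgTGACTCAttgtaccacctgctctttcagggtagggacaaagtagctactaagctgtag
Tlr13, chrX:106143025-106143203, plus strand: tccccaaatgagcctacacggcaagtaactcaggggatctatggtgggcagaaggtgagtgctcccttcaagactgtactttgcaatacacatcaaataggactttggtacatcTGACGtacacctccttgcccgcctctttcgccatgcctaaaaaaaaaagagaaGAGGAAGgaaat
Tlr8, chrX:167264330-167264579, minus strand: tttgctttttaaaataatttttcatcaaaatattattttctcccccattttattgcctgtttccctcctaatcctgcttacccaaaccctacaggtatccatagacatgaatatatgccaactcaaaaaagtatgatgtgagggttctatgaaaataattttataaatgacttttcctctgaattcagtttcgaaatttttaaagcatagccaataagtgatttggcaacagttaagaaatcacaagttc
The Tlr9 window held a PU.1 match beginning 112 bases and an AP-1 match beginning 58 bases before the start. The Tlr13 window held a PU.1 match 83 bases and TGACG 136 bases before the RefSeq start, and the Tlr8 window held none of the 6. Of all 32851 windows of the same length, 10.6% held PU.1, 6.75% AP-1, 1.55% the full cAMP response element, 17.8% TGACG, 2.98% the ISRE and 3.9% NF-κB. Elsewhere among the members, Tlr2 and Tlr3 held NF-κB. Tlr1 and Tlr6 had 2 windows each. Tlr1 held PU.1 in window 1 only, and Tlr6 held the ISRE in window 1 and TGACG in window 2. The matches describe letters, and no binding was measured here. Tlr7 and Tlr8 are neighbours on chromosome X, 40599 bp apart, and Tlr1 and Tlr6 on chromosome 5, 18467 bp apart. Tlr1 and Tlr6 are similar enough in sequence that the counting could split reads between them, so their separate levels are uncertain to that extent.

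The first question was how DA changed these genes in M2 WT BMDMs. DA lowered 6 of the 10 (Cd14, Tlr2 and Tlr4 of the surface group, Tlr7, Tlr8 and Tlr9 of the endosomal group), raised Tlr1 and Tlr13, and left Tlr3 and Tlr6 short of the threshold. A gene was called at 1.2-fold or more with an adjusted p below 0.001, by limma on log2(FPKM + 1) with Benjamini-Hochberg adjustment over all tested genes, and every fold change below is on that scale, which understates changes of low genes. Of the 10735 tested genes, 25.9% rose and 20.4% fell by the same rule, against 2 and 6 of the 10 members. The median log2 change was -0.668 over the members and 0.0311 over all tested genes.

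Of the surface group, Cd14 lay at 158.65, 153.82 and 151.60 FPKM in untreated M2 WT replicates 1 to 3 and at 57.29, 56.20 and 58.68 FPKM with DA. The groups did not overlap, and the change was -1.41 (SE 0.0282, adjusted p = 1.83e-14). Tlr2, the shared partner of the lipoprotein receptors, lay at 9.86, 9.73 and 9.89 FPKM untreated and at 4.05, 4.07 and 4.15 FPKM with DA. All 3 DA-treated libraries were below all untreated ones, with a change of -1.09 (SE 0.0352, adjusted p = 2.34e-12). Tlr4 lay at 37.42, 38.51 and 40.09 FPKM untreated and at 24.27, 24.87 and 24.44 FPKM with DA, again without overlap, a change of -0.64 (SE 0.0312, adjusted p = 2.08e-10).

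Tlr1 and Tlr6 encode the partners of TLR2. Tlr1 lay at 40.11, 41.75 and 41.63 FPKM untreated and at 51.57, 48.72 and 52.15 FPKM with DA. All DA-treated libraries were above the untreated ones, a rise of 0.30 (SE 0.0326, adjusted p = 1.35e-06). Tlr6 lay at 5.13, 5.45 and 5.76 FPKM untreated and at 4.21, 4.90 and 4.88 FPKM with DA, a difference of -0.19 that was not past the threshold (adjusted p = 0.00765).

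Of the endosomal group, Tlr9 lay at 17.98, 17.98 and 18.44 FPKM in untreated and at 4.37, 4.38 and 4.46 FPKM in DA-treated M2 WT BMDMs. This was the largest change of the 10 in this comparison, at -1.82 (SE 0.0401, adjusted p = 4.74e-14), and the groups did not overlap. Tlr7 lay at 85.71, 90.08 and 90.23 FPKM untreated and at 37.43, 38.30 and 39.32 FPKM with DA, a change of -1.19 (SE 0.0274, adjusted p = 7.75e-14). Its neighbour Tlr8 went from 126.72, 131.17 and 138.97 FPKM to 78.77, 81.43 and 82.69 FPKM, a change of -0.70 (SE 0.0314, adjusted p = 7.55e-11).

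Tlr13, the receptor for bacterial ribosomal RNA, rose. It lay at 60.50, 60.59 and 64.60 FPKM untreated and at 97.27, 99.72 and 97.18 FPKM with DA, a rise of 0.66 (SE 0.0307, adjusted p = 1.2e-10) without overlap. Tlr3 lay at 4.81, 4.81 and 4.92 FPKM untreated and at 4.94, 4.55 and 4.98 FPKM with DA. The groups overlapped, and the difference was -0.01 (95% interval -0.126 to 0.112, adjusted p = 0.92). In these bulk samples, fewer cells of a type and less RNA per cell cannot be told apart. Beside these values, the macrophage marker sum was 10560.46 to 10735.96 FPKM in untreated and 8292.32 to 8328.92 FPKM in DA-treated M2 WT libraries (1 of the 7 markers rose and 3 fell), the fibroblast marker sum went from 121.58 to 123.54 FPKM untreated to 100.68 to 101.77 FPKM with DA, and the epithelial sum rose from 2.18 to 2.24 FPKM to 16.75 to 17.21 FPKM, of which Cdh1 held nearly all and Epcam, Krt8 and Krt18 stayed near 0. Of the 4 fibroblast markers 1 fell (Dcn) and 2 rose. Their part in the results was not tested.

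**Figure D2:**
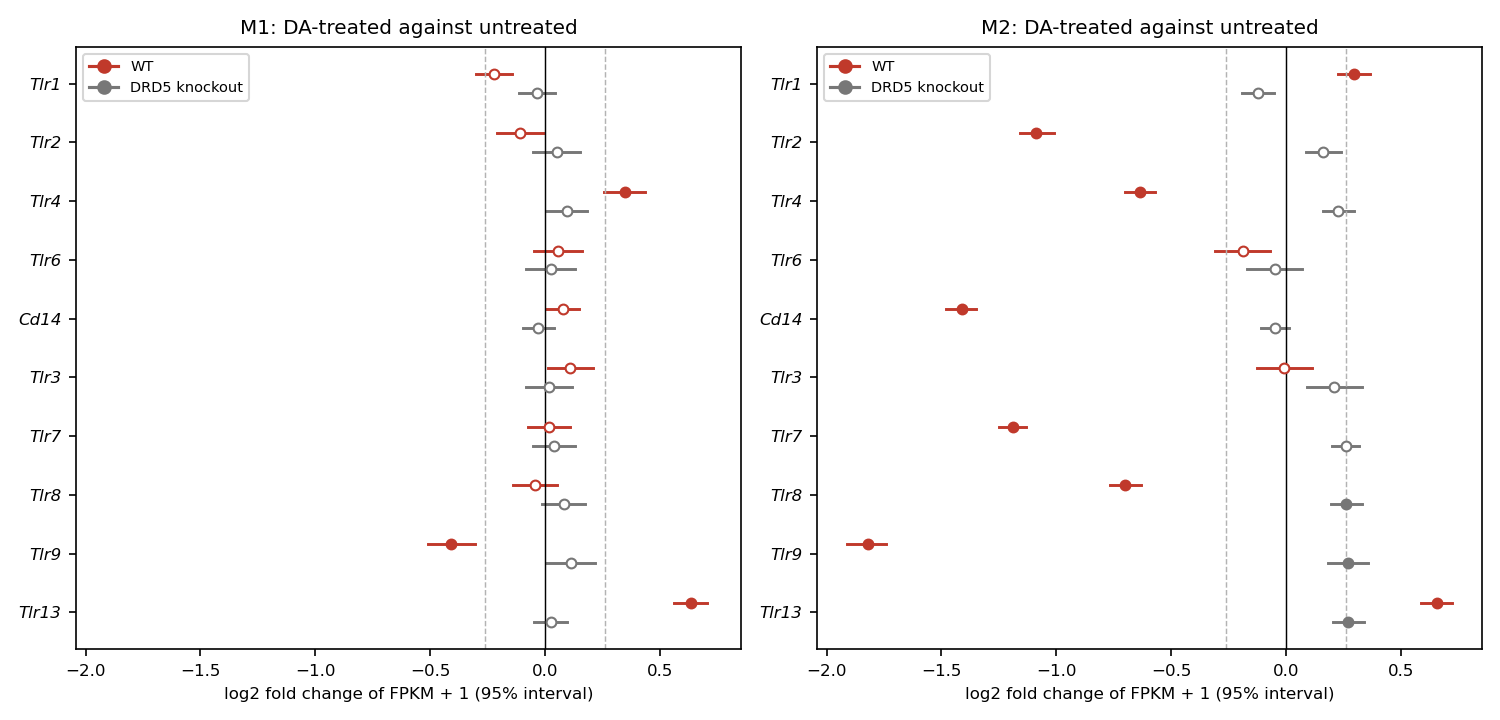
Log2 fold change of FPKM + 1, DA-treated against untreated, for the 10 genes in WT and DRD5-/- BMDMs of each stimulus, with 95% intervals and dashed lines at 1.2-fold. Filled points passed the threshold and open points did not. In M2 WT cells 8 genes are filled, from -1.82 for Tlr9 to 0.66 for Tlr13, and in M1 DRD5-/- cells none is.

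In M1 WT BMDMs DA changed 3 of the 10 genes: Tlr13 and Tlr4 rose and Tlr9 fell. Of the 10040 tested genes, 4.73% rose and 9.6% fell. Of the calls over all tested genes 33% were higher, or 55.7% after median-of-ratios scaling of the libraries. The median change of the members was 0.0375. Tlr13 lay at 60.07, 60.72 and 63.17 FPKM untreated and at 97.27, 95.74 and 94.06 FPKM with DA, a rise of 0.63 (SE 0.034, adjusted p = 2.94e-09). Tlr4 lay at 13.15, 13.12 and 14.05 FPKM untreated and at 17.74, 17.25 and 17.11 FPKM with DA, a rise of 0.35 (SE 0.0414, adjusted p = 9.67e-06). Tlr9 lay at 28.96, 30.50 and 29.30 FPKM untreated and at 21.55, 22.76 and 21.91 FPKM with DA, a fall of -0.41 (SE 0.0485, adjusted p = 9.67e-06). For none of the 3 genes did the groups overlap.

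The 7 other members were not past the threshold in M1 WT. Tlr1 lay at 45.19, 46.20 and 48.48 FPKM untreated and at 40.58, 40.18 and 38.79 FPKM with DA, a difference of -0.22 with an adjusted p of 0.000197, short of 1.2-fold. Cd14 lay at 239.43, 239.61 and 234.57 FPKM untreated and at 246.10, 251.62 and 255.77 FPKM with DA (0.08, adjusted p = 0.062). Tlr2 differed by -0.11 (adjusted p = 0.0748), Tlr3 by 0.11 (adjusted p = 0.0654), Tlr6 by 0.06 (adjusted p = 0.373), Tlr7 by 0.02 (adjusted p = 0.751) and Tlr8 by -0.04 (adjusted p = 0.475, or 0.0306 on the log2 scale after median-of-ratios scaling). The neutrophil marker sum was 32.87 to 42.45 FPKM in untreated and 53.28 to 63.98 FPKM in DA-treated M1 WT libraries, from S100a8 and S100a9, with Mpo, Elane and Ly6g at or near 0. The 1 tested dendritic cell marker, Xcr1, was lower with DA (-0.465 on the log2 scale), with marker sums of 2.32 to 3 FPKM untreated and 1.72 to 2.05 FPKM with DA. The macrophage marker sum was 7247.43 to 7360.43 FPKM untreated and 7923.44 to 7993.28 FPKM with DA, where 1 of the 7 markers rose. The part of these markers in the results was not tested.

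The DA effect itself was compared between the stimuli in WT cells, in a fit of all 24 libraries. It differed past the threshold for 7 of the 10 genes. The difference, as M1 effect minus M2 effect, was 0.98 for Tlr2, 0.98 for Tlr4, 1.49 for Cd14, 1.21 for Tlr7, 0.66 for Tlr8, 1.42 for Tlr9 and -0.52 for Tlr1. By the same rule 17.6% of the 11148 tested genes were higher and 28.2% lower. Of the 3 genes past the threshold with DA in both stimuli, Tlr4 rose in M1 and fell in M2, Tlr9 fell in both and Tlr13 rose in both. For Tlr13 the difference was -0.02 (95% interval -0.117 to 0.0735), or 0.0571 after scaling. It was 0.12 for Tlr3 and 0.24 for Tlr6 (adjusted p = 0.00676), both short of the threshold as deposited. After scaling Tlr6 came past it, at 0.312 (adjusted p = 0.000928 by limma), and 8 members then differed. The deposited values list 18063 genes for the M1 libraries and 17786 for the M2 libraries. The stimulus cannot be told apart from any other difference between those sets of libraries.

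In DRD5-/- BMDMs the response to DA was examined in the same way. In M1 DRD5-/- cells 0 of the 10 genes were past the threshold, with log2 differences from -0.04 to 0.11 and a lowest adjusted p of 0.851 by limma. Over all 10040 tested genes 0% rose and 0% fell at this threshold, 0 genes passed an adjusted p of 0.05, and 569 genes had an unadjusted p under 0.05. Tlr13 lay at 58.10, 56.69 and 59.83 FPKM untreated and at 58.41, 57.34 and 62.04 FPKM with DA. Tlr4 lay at 11.79, 11.19 and 11.44 FPKM untreated and at 12.15, 11.96 and 12.90 FPKM with DA, and Tlr9 at 28.79, 27.58 and 29.35 FPKM untreated and at 28.88, 30.52 and 33.83 FPKM with DA. The Tlr13 and Tlr9 groups overlapped. The differences were 0.11 for Tlr9, 0.10 for Tlr4, 0.08 for Tlr8, 0.05 for Tlr2, 0.04 for Tlr7, 0.03 for Tlr6 and Tlr13, 0.02 for Tlr3, -0.03 for Cd14 and -0.04 for Tlr1.

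In M2 DRD5-/- cells 3 endosomal receptors rose with DA, where 3.37% of all tested genes rose and 0.652% fell. Tlr8 went from 121.64, 119.23 and 123.23 FPKM to 147.34, 145.64 and 144.59 FPKM (0.26, adjusted p = 4.59e-05). Tlr9 went from 14.53, 14.15 and 15.27 FPKM to 17.13, 18.80 and 17.75 FPKM (0.27, adjusted p = 0.000232). Tlr13 went from 64.32, 68.30 and 67.13 FPKM to 81.88, 79.91 and 79.98 FPKM (0.27, adjusted p = 3.11e-05). None of the 3 overlapped, but after median-of-ratios scaling 0 members were past the threshold, and the count was 1 without untreated DRD5-/- replicate 2 or without DA-treated DRD5-/- replicate 1. Over all genes 83.8% of the calls were higher as deposited and 69.7% after scaling.

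Other members of the M2 DRD5-/- comparison were close to the limits. Tlr7 lay at 81.32, 79.17 and 81.20 FPKM untreated and at 97.22, 97.32 and 95.71 FPKM with DA, a difference of 0.26 just short of 1.2-fold (adjusted p = 1.88e-05). Tlr4 differed by 0.23 (adjusted p = 0.000131), Tlr3 by 0.21 (adjusted p = 0.0104), Tlr2 by 0.16 (adjusted p = 0.00352) and Tlr1 by -0.12 (adjusted p = 0.0123). Cd14 and Tlr6 each differed by -0.05. Thus, of the genes past the threshold in both genotypes as deposited, Tlr8 and Tlr9 had opposite signs with DA in M2 cells. Tlr13 had the same sign in both. Of the genes short of the threshold in DRD5-/- cells, Tlr1, Tlr2, Tlr4 and Tlr7 also had opposite signs in the genotypes. Cd14 and Tlr6 had the same sign, and Tlr3 differed by -0.01 in WT.

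The difference between the DA effect in WT and that in DRD5-/- cells was then tested directly, as an interaction. In M2 it was past the threshold for 8 of the 10 genes. It was -2.10 for Tlr9, -1.45 for Tlr7, -1.37 for Cd14, -1.25 for Tlr2, -0.96 for Tlr8 and -0.86 for Tlr4, and 0.42 for Tlr1 and 0.38 for Tlr13. Over all tested genes 22.8% were higher and 20.4% lower. Tlr6 (-0.14, adjusted p = 0.136) and Tlr3 (-0.22, adjusted p = 0.0237) were not past the threshold. In M1 the interaction was past it for Tlr13 (0.61, adjusted p = 4.58e-07) and Tlr9 (-0.52, adjusted p = 5.62e-05), where 3.2% of genes were higher and 5.18% lower. For Tlr4 it was 0.25 (adjusted p = 0.00496) as deposited, and 0.325 (adjusted p = 0.000627) after scaling. The other 7 genes were short of the threshold, with -0.18 for Tlr1, -0.16 for Tlr2, -0.12 for Tlr8, -0.02 for Tlr7, 0.03 for Tlr6, 0.09 for Tlr3 and 0.11 for Cd14. Of the M1 calls over all genes 38.2% were higher, or 63.8% after scaling.

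Without DA, the genotype itself was compared. In M1 cells 0 of the 10 members differed past the threshold, and 0.727% of all genes were higher and 0.209% lower in DRD5-/- cells. The nearest was Tlr4, at -0.21 (adjusted p = 0.00522). The other 9 were at -0.13 for Tlr7, -0.11 for Tlr6, -0.10 for Tlr8, -0.07 for Tlr13, -0.06 for Tlr3, -0.05 for Tlr9, -0.01 for Tlr2, 0.05 for Cd14 and 0.07 for Tlr1. Both tested neutrophil markers were lower in DRD5-/- cells, with marker sums of 14.28 to 17.99 FPKM against 32.87 to 42.45 FPKM in WT. In M2 cells Tlr6 was higher in DRD5-/- cells (0.31, adjusted p = 0.000971), with 6.94, 6.78 and 7.29 FPKM against 5.13, 5.45 and 5.76 FPKM in WT. The others past it were lower: Tlr4 by -0.26 (adjusted p = 2.84e-05), Cd14 by -0.29 (adjusted p = 4.33e-06) and Tlr9 by -0.29 (adjusted p = 0.000114). Cd14 lay at 123.66, 130.57 and 124.70 FPKM in DRD5-/- cells, below all 3 WT libraries. Short of the threshold were Tlr2 (-0.26, adjusted p = 0.000105, under 1.2-fold), Tlr3 (-0.15), Tlr7 (-0.14), Tlr8 (-0.12), Tlr1 (0.10) and Tlr13 (0.10). Over all genes 1.37% were higher and 4.15% lower, and of these calls 24.8% were higher as deposited and 40.1% after scaling. With scaling 1 member was past the threshold, Tlr6, and without untreated DRD5-/- replicate 2 or untreated WT replicate 3 the count was 2. The fibroblast marker sum was 76.58 to 78.72 FPKM in these DRD5-/- libraries against 121.58 to 123.54 FPKM in WT, with 4 of 4 markers lower, and the epithelial sum, nearly all Cdh1, was 1.09 to 1.16 against 2.18 to 2.24 FPKM. The part of these markers in either genotype comparison was not tested.

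With DA the genotypes were compared next. These comparisons use the same DA-treated WT libraries as those above, so the values are set side by side and are no further support for them. In M2 cells 9 of the 10 genes were past the threshold. Higher in DRD5-/- cells were Tlr9 (1.81), Tlr7 (1.31), Cd14 (1.08), Tlr2 (0.99), Tlr8 (0.84), Tlr4 (0.60) and Tlr6 (0.45), and lower were Tlr1 (-0.32) and Tlr13 (-0.28), where 20.4% of all genes were higher and 29.2% lower. Tlr13 was short of 1.2-fold after scaling, at -0.233. Tlr3 differed by 0.07. Beside these values, 3 of 4 fibroblast markers were lower in DRD5-/- cells, with sums of 83.74 to 85.01 against 100.68 to 101.77 FPKM, Cdh1 was lower, and of the 7 macrophage markers 3 were higher and 1 lower. In M1 cells Tlr9 was higher in DRD5-/- cells (0.47, adjusted p = 1.59e-06) and Tlr4 (-0.46, adjusted p = 4.05e-07) and Tlr13 (-0.68, adjusted p = 1e-09) were lower, where 12.6% of all genes were higher and 5.95% lower. Tlr1 (0.25, adjusted p = 4.57e-05) was under 1.2-fold, and Tlr2 (0.15), Tlr8 (0.02), Cd14 (-0.06), Tlr7 (-0.11), Tlr6 (-0.14) and Tlr3 (-0.15) were short of the threshold. Both tested neutrophil markers were lower in these DRD5-/- cells (median -2.22), with sums of 17.23 to 19.76 against 53.28 to 63.98 FPKM, mostly S100a8. The dendritic cell marker Xcr1 was higher (0.451), and 2 of 7 macrophage markers were lower. The part of the markers in these results was not tested. Of those M1 calls 67.9% were higher as deposited and 47.5% after scaling.

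Between the stimuli, untreated WT cells differed past the threshold in 7 of the 10 genes. Here and in the DRD5-/- comparison below, the stimulus cannot be told apart from any other difference between the M1 and M2 sets of libraries. Tlr3 (1.68), Tlr6 (1.58), Tlr9 (0.68) and Cd14 (0.62) were higher in M1 cells, and Tlr8 (-2.03), Tlr4 (-1.46) and Tlr7 (-1.36) were higher in M2 cells. Over all 11148 genes 22.6% were higher and 54.9% lower in M1, and the median gene stood at -0.387, so a member at 0 was above the median gene. After median-of-ratios scaling, which moves that median to 0.00668, the 10 members were all past the threshold, the 7 with the same signs. Tlr1 then stood at 0.615, Tlr2 at 0.64 and Tlr13 at 0.43, against 0.18, 0.23 and -0.01 as deposited, so the sign for Tlr13 depended on the scaling. Cd14 then stood at 1.07 and Tlr9 at 1.11. The share of calls that were higher went from 29.2% to 50.3% with scaling. The fibroblast markers were lower in M1 cells for 4 of 4 (median -3.19), with sums of 4.09 to 4.58 FPKM against 121.58 to 123.54 FPKM in M2 cells. The 1 tested neutrophil marker, S100a8 (3.96), and the 1 tested dendritic cell marker, Xcr1 (1.35), were higher in M1 cells, Cdh1 was lower (-1.60), and of the 7 macrophage markers 4 were higher and 3 lower. The part of these markers in the differences between stimuli was not tested.

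Untreated DRD5-/- cells gave 8 genes past the threshold between the stimuli: Tlr3 (1.76), Tlr6 (1.16), Cd14 (0.95), Tlr9 (0.92) and Tlr2 (0.48) were higher in M1, and Tlr8 (-2.01), Tlr4 (-1.41) and Tlr7 (-1.36) were lower. Over all genes 23.4% were higher and 53.8% lower, with a median of -0.368, and the share higher went from 30.4% to 49.9% with scaling. Tlr1 (0.15) and Tlr13 (-0.19) were short of the threshold as deposited. After scaling 9 members were past it: Tlr1 was gained at 0.555, Tlr2 stood at 0.854, and Tlr13 was at 0.221 and short of 1.2-fold. The fibroblast markers were again lower in M1 cells for 4 of 4 (median -2.71), and S100a8 (3.58) and Xcr1 (1.2) were higher.

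**Figure D3:**
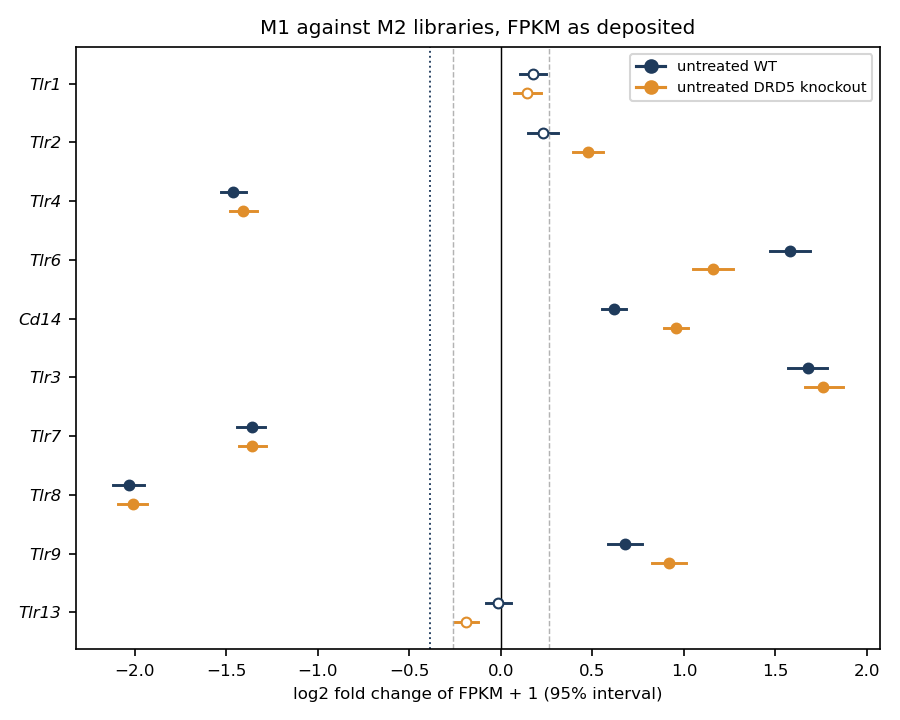
Log2 difference of FPKM + 1, M1 against M2, in untreated WT and DRD5-/- BMDMs for the 10 genes, with 95% intervals. The dotted line marks the median of all tested genes, -0.387 in WT. Filled points passed the threshold. Tlr3 and Tlr6 lie furthest to the M1 side and Tlr8 furthest to the M2 side.

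As FPKM are per length, the 9 receptor genes can be set against each other as shares of their summed FPKM. The sum was 264.1 FPKM in untreated and 288.9 FPKM in DA-treated M1 WT cells, and 400.9 and 310.7 FPKM in M2 WT cells. Tlr13 held 23.2% of it in untreated M1 WT cells and 33.1% with DA, and 15.4% and 31.6% in M2 WT cells. In DRD5-/- cells its share was 23% untreated and 22.8% with DA as M1, and 17.6% and 18.3% as M2 cells, with sums of 252.9, 259.7, 378.7 and 440.3 FPKM. Tlr8 went from 33% to 26.1% and Tlr7 from 22.1% to 12.3% with DA in M2 WT cells. Tlr9 went from 11.2% to 7.64% in M1 WT and from 4.52% to 1.42% in M2 WT cells. These shares describe RNA and not protein, and were not tested.

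**Figure D4:**
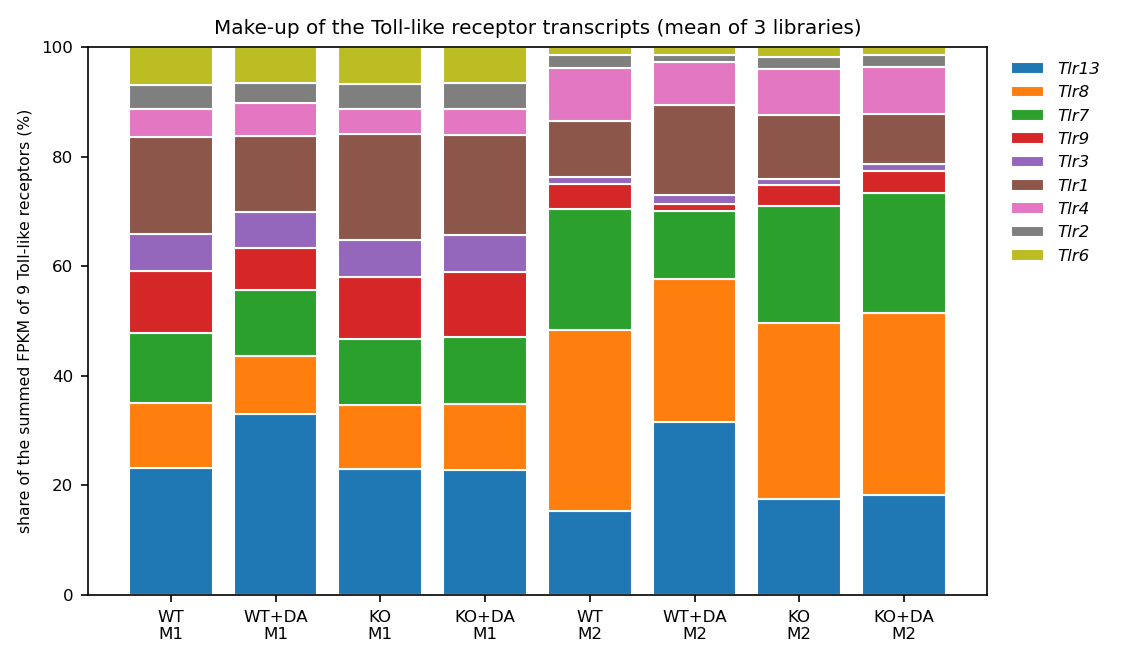
Stacked bars of each receptor's share (%) of the summed FPKM of the 9 Toll-like receptor genes, by group (means of 3 libraries). The Tlr13 share is 33.1% in DA-treated M1 WT and 31.6% in DA-treated M2 WT cells, against 15.4% to 23.2% in the other groups.

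The other genes of the pathway were taken from lists fixed with earlier results of these data known. Among co-receptors and chaperones in M2 WT cells, 2 of 7 tested genes rose with DA and 2 fell. Cd36 (0.76), a scavenger receptor that aids TLR2, and Cd180 (0.29), a relative of TLR4, rose. Ly86 (-1.23), which encodes MD-1, the partner of CD180, and Unc93b1 (-0.61), which escorts the endosomal receptors to their compartment, fell. Ly96, which encodes MD-2, differed by -0.16 (adjusted p = 0.0252). Of 5 tested adaptors, Pik3ap1 (0.90) rose, and Ticam2 (-0.96) and Ticam1 (-0.67), which encode the TRIF arm, fell. Myd88 differed by 0.02 (adjusted p = 0.629).

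Downstream in M2 WT cells, of 14 kinases and ubiquitin ligases 1 rose and 6 fell with DA. Peli2 (-1.06), a ubiquitin ligase of the IRAK complex, fell most, with Irak2 (-0.56), a kinase of the MyD88 complex, and Ikbke (-0.42), a kinase of interferon induction, and Ube2n (0.45), the ubiquitin-conjugating partner of TRAF6, rose. Of 8 inhibitors 3 rose and 2 fell: Tnfaip3 (0.49), which encodes the deubiquitinase A20, and the phosphatase gene Dusp1 (0.33) rose, while Tnip1 (-0.79), an A20 partner, and Irak3 (-0.32), a blocker of IRAK signalling, fell. Of 9 other pattern recognition receptors 2 rose and 5 fell, with the scavenger receptor gene Msr1 (2.35) and the DNA sensor gene Cgas (0.76) rising and Nod1 (-0.61), a sensor of bacterial peptidoglycan, and Tmem173 (-0.55), which encodes STING, falling. These counts are to be read against the 25.9% and 20.4% of all genes given above.

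In M1 WT cells, where 4.73% of all genes rose and 9.6% fell, Cd36 (0.89) and Cd180 (0.53) rose and the chaperone gene Cnpy3 (-0.28) fell, of 7 tested. Of 5 adaptors Pik3ap1 (-0.29) and Ticam2 (-0.26) fell, so Pik3ap1 had opposite signs in the stimuli. Of 14 kinases and ligases Traf6 (-0.35) fell, and of 7 inhibitors Dusp1 (-0.30) fell. Of 10 other receptors 4 rose, namely Msr1 (0.58), Clec7a (0.47) and Clec4e (0.27), which bind fungal and mycobacterial glycans or glycolipids, and Tmem173 (0.27). In DRD5-/- M1 cells 0 genes of these 5 lists were past the threshold by limma. In DRD5-/- M2 cells 3 of the 43 tested genes rose and 0 fell, where 3.37% of all genes rose and 0.652% fell. They were Clec4e (0.55) and the RNA sensor genes Ifih1 (0.40) and Ddx58 (0.31), which are named here after their values were seen.

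**Figure D5:**
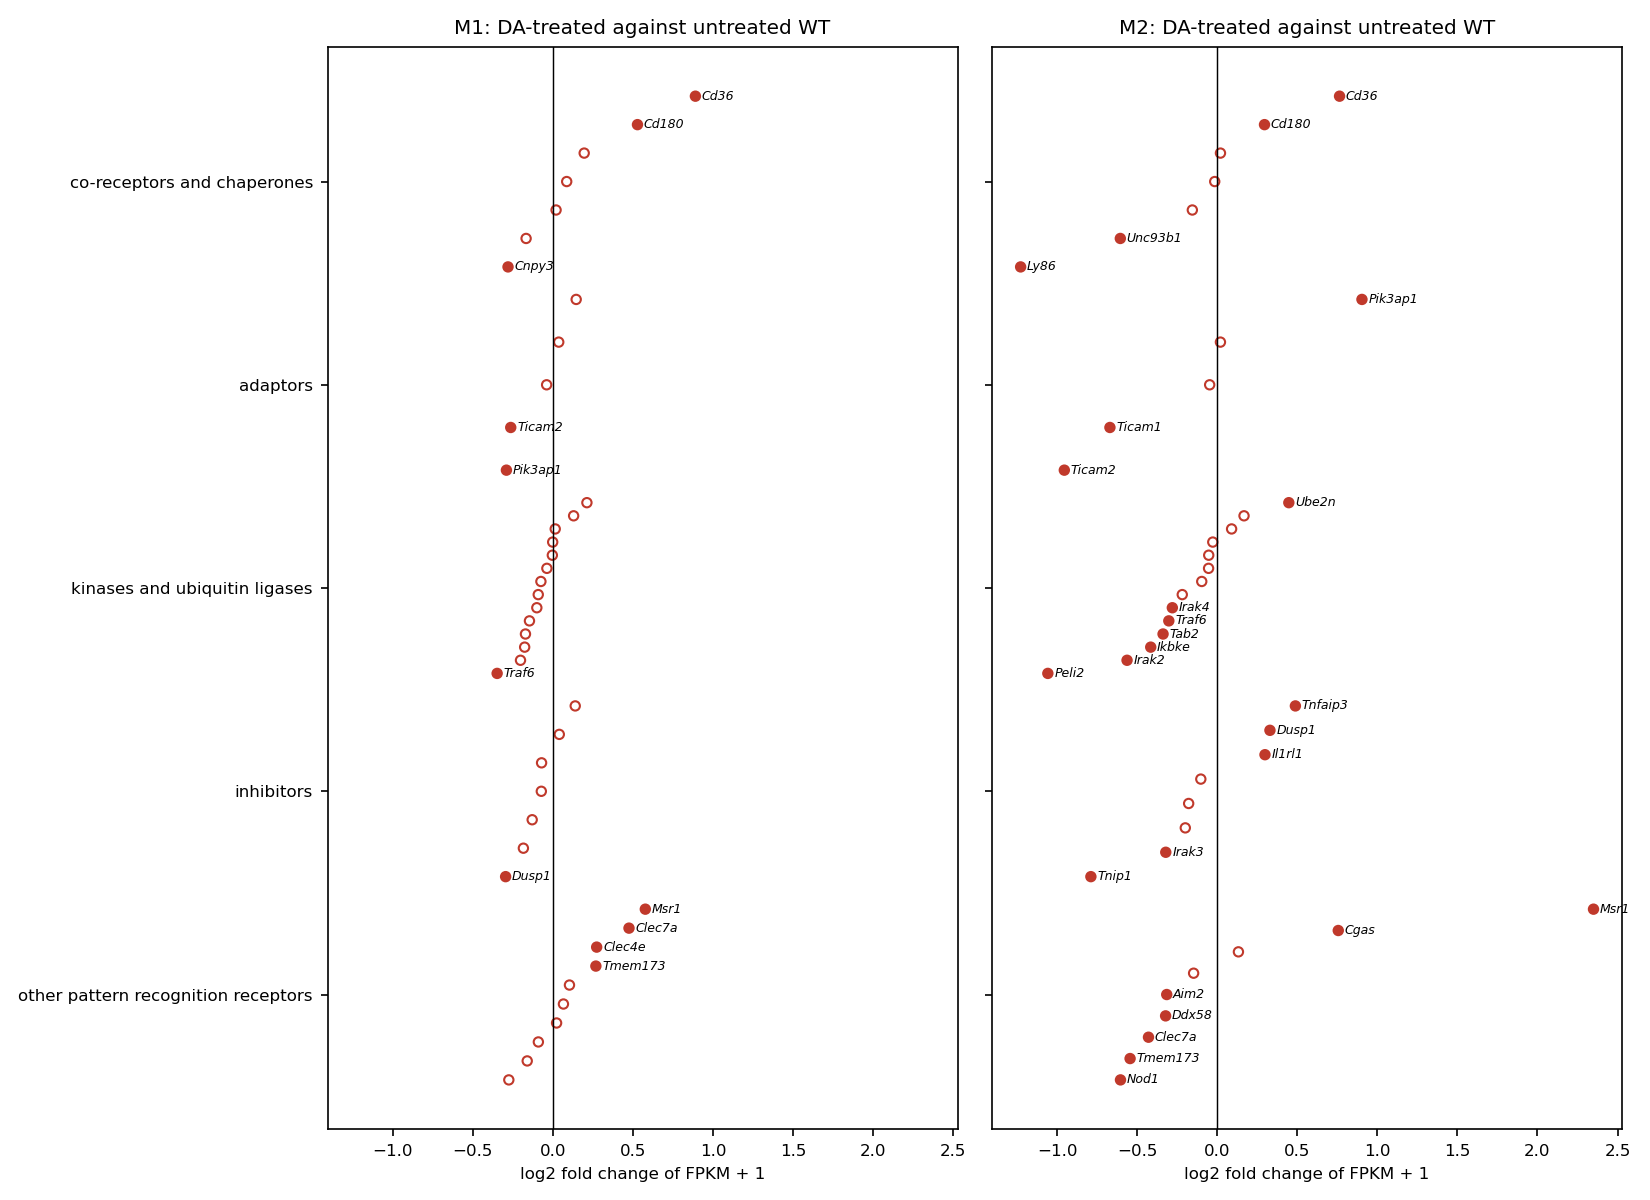
Log2 fold change of FPKM + 1 with DA in WT cells for the tested genes of the 5 pathway lists, 1 point per gene, M1 on the left and M2 on the right. Filled points with a name passed the threshold, and open points did not. Msr1 at 2.35 and Ly86 at -1.23 mark the ends of the M2 panel.

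Finally, for the 8 members past the threshold with DA in WT cells, the genes whose levels followed each most closely were taken over the 24 libraries, as Pearson's r of log2(FPKM + 1) with each stimulus centred on its own mean, among 9620 genes. The libraries share their treatment groups and normalization, so r is a description only. Tlr9 was nearest to Phlpp1 (r = 0.9938) and Tnfrsf1b (0.9926), and Tlr7 to Stxbp3 (0.9914), Cybb (0.9909) and Klhl24 (0.9906). Tlr8 was nearest to Adam17 (0.9868), Arid5b (0.9851) and Plxnc1 (0.9822), and Cd14 to Ciita (0.9875), Ralgds (0.9853) and Slc6a12 (0.9845). Tlr2 was nearest to Slc2a6 (0.9857), Birc3 (0.9831) and Btg2 (0.9819), Tlr4 to Sestd1 (0.967), Ahnak (0.9646) and Gm1966 (0.9588), and Tlr1 to Actb (0.952), Lyn (0.9489) and Slc35a4 (0.9448). Tlr13 was nearest to Kitl (0.9792), to Cd36 (0.9707), which rose with DA in both stimuli above, and to Nrp1 (0.9632). For Tlr6 and Tlr3, which were not past the threshold with DA in WT cells, the highest r were 0.9128 and 0.883.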

How the data were processed

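RNA-seq was run on 24 libraries of BMDMs, 3 in each of 8 groups, which were taken from the labels. The authors deposited FPKM with 2 decimals, without read counts. Per the labels the reads came from a BGISEQ-500 and were mapped with HISAT2. The submitters' processing notes also name Bowtie2 2.2.5 and the build GRCm38.p6, and the study's methods another patch of GRCm38. Depth per library is unknown, so no counting interval was given. Length correction and filtering remain in every value.

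Genes with at least 1 FPKM in at least 3 libraries entered fits of log2(FPKM + 1) in limma 3.58.1 under R 4.3.3, with 1 mean per group and an intensity trend: 10040 genes over the 12 M1 libraries, 10735 over the 12 M2 libraries and 11148 over all 24 for comparisons between stimuli. Two-sided p-values received a Benjamini-Hochberg adjustment over all tested genes, and calls needed 1.2-fold and an adjusted p below 0.001. The fit was tested on simulated data. The alternatives tried were median-of-ratios scaling, a pseudocount of 0.1, no filter on low values, an adjusted p of 0.05, a replicate block, a fit of the compared groups only, and leaving out each library. The members, pathway lists and rules were chosen with earlier results of these data known. All members are named in every comparison, and of each pathway list up to 4 genes with the largest change past the threshold with DA in WT, beside genes needed to describe its levels. Of the genes most alike to a member, 1 is not reported here. Promoter windows came from RefSeq and gene positions from GENCODE M21, both GRCm38. Python 3.11.15, numpy 2.4.6, pandas 2.3.3 and matplotlib 3.10.9 were used otherwise.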

Additional observations from a re-analysis of the deposited data

Results flagged for a closer look

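The DA effect differed between WT and DRD5-/- BMDMs, by limma's test of the difference itself (log2 scale, WT minus DRD5-/-), for 2 members in M1 and 8 in M2. Over all tested genes, 3.2% were higher and 5.18% lower in M1, and 22.8% were higher and 20.4% lower in M2. In M1 the differences were 0.61 for Tlr13 and -0.52 for Tlr9. In M2 they were 0.42 for Tlr1, 0.38 for Tlr13, -0.86 for Tlr4, -0.96 for Tlr8, -1.25 for Tlr2, -1.37 for Cd14, -1.45 for Tlr7 and -2.10 for Tlr9.

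The DA effect in WT BMDMs also differed between the stimuli for 7 members (M1 minus M2): -0.52 for Tlr1, 0.66 for Tlr8, 0.98 for Tlr2, 0.98 for Tlr4, 1.21 for Tlr7, 1.42 for Tlr9 and 1.49 for Cd14. Over all tested genes, 17.6% were higher and 28.2% lower. After median-of-ratios scaling Tlr6 was also past the threshold, at 0.312. The 3 libraries of a group are too few for a search for single libraries that stand apart.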

How the results depend on the processing

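Of the 62 comparisons of a member past the threshold, 836 values under the alternatives gave 808 with the same direction and side of the threshold, 28 short of the threshold and 0 with the other sign. Of the 68 other comparisons, 13 alternative values came past the threshold and 25 changed sign. With median-of-ratios scaling the number of members past the threshold was 0 for DA in M2 DRD5-/- cells (3 as deposited) and 1 for untreated M2 DRD5-/- against WT (4 as deposited), and the cause was not tested. Scaling also turned the sign of Tlr8 with DA in M1 WT (0.0306), Tlr8 between genotypes in DA-treated M1 (-0.0415), Tlr7 in the M1 interaction (0.0557), Tlr13 in M1 against M2 in WT (0.43) and DRD5-/- (0.221), and Tlr13 in the difference of DA effects between stimuli (0.0571).

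Leaving out each library in turn, the count of members ranged from 1 to 4 for DA in M2 DRD5-/- and from 2 to 4 for untreated M2 DRD5-/- against WT. Signs turned within these ranges: Tlr7 with DA in M1 WT (-0.0123 to 0.0391), and with DA in M1 DRD5-/- Cd14 (-0.0557 to 0.00144), Tlr3 (-0.00694 to 0.0663), Tlr6 (-0.000134 to 0.0644) and Tlr13 (-0.00783 to 0.0481). The others were Tlr2 in untreated M1 genotypes (-0.0318 to 0.0277), Tlr8 in DA-treated M1 genotypes (-0.0108 to 0.0643), Tlr7 (-0.0561 to 0.0128) and Tlr6 (-0.00786 to 0.076) in the M1 interaction, Tlr3 with DA in M2 WT (-0.0261 to 0.0277) and Tlr13 in M1 against M2 WT (-0.0342 to 0.0177). The labels do not say whether the replicate numbers pair the libraries. Same-numbered libraries showed little shared shift (mean residual correlation -0.021 in M1 and -0.016 in M2, with 1 of 18 pairs over 0.1 in each), which cannot settle whether they were paired. With a replicate block the counts stayed as they were, for example 8 members with DA in M2 WT. Depth is unknown and limits the precision of the lowest members by an amount that could not be given.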
